A study of Mus musculus with 8 samples.

Results

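The 4 Hox clusters of the mouse hold 38 genes that were examined here as 1 set of homeobox genes, 10 in Hoxa on chromosome 6, 10 in Hoxb on chromosome 11, 9 in Hoxc on chromosome 15 and 9 in Hoxd on chromosome 2, out of 20807 protein-coding autosomal genes. The rule that picks them uses gene names and positions and no score, and the set was proposed with earlier results of these data known. All 38 were found in the GENCODE annotation, and together they overlapped 9 of the 23972 bins of 100 kb that carried a compartment score in all 8 Hi-C libraries. Each bin was counted once, since 2 to 8 neighbouring Hox genes usually share a bin and therefore share a single measurement. The 10 bins on each side of every cluster (1 Mb) served as the local reference and gave 79 flank bins, because Hoxc lies near the end of its chromosome and had 9 bins above it.

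Hox genes encode transcription factors that give cells their position along the head to tail axis, and their order along the chromosome follows the order in which they are used along the body. In embryonic stem cells the clusters are known to be largely silent and held by Polycomb proteins and H3K27 methylation, while their promoters stay rich in unmethylated CpG dinucleotides. H3K9 methylation is a separate silencing system, placed by G9a/GLP, SETDB1 and SUV39H1/2. Its dimethylated form is known to be more enriched in the inactive B compartment, and the paper also found it in a part of the A compartment.

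The study asked whether removing H3K9 methyltransferase activity alters nuclear compartments in mouse embryonic stem cells (mESCs). There were 8 groups with 1 library each. In the Setdb1 line, a conditional knockout line, 1 group was left untreated (Setdb1 WT), and the others were cells given UNC0642, an inhibitor of G9a/GLP, at 2 µM for 3 days (Setdb1 WT + UNC), cells given 4-hydroxytamoxifen (4-OHT) at 800 nM for 5 days to delete Setdb1 (Setdb1 KO), and cells given 4-OHT for 2 days and then UNC0642 (Setdb1 KO + UNC). The Suv39h line gave a wild type (Suv39h WT) and a double knockout of Suv39h1 and Suv39h2 (Suv39h DKO), each without UNC0642 and with the same dose of it (Suv39h WT + UNC, Suv39h DKO + UNC). All cells were grown on gelatin with LIF. Suv39h WT and Suv39h DKO were separate clones, and only the Setdb1 KO groups received 4-OHT, so genotype cannot be told apart from clone or from 4-OHT. Repeats of the Hi-C are mentioned in the study's methods without saying whether a file is 1 repeat or a pool, so p-values measure only the spread between these libraries.

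The value of a bin is its compartment score, the first eigenvector of the chromosome's contact map, which is positive in the A compartment (active chromatin) and negative in the B compartment. The score has no physical unit, averages 0 on every chromosome and shrinks as chromosomes get longer. Clusters on different chromosomes were therefore compared by the percentile of a bin among the bins of its own chromosome. The files hold no read counts, so the depth behind each score is unknown and limits of detection are not given.

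All 72 values of the 9 Hox bins in the 8 libraries were positive. All 9 bins thus lay in the A compartment in every library, as did 38.9% of all bins. The clusters differed in how far into A they reached. Hoxa stood near the top of its chromosome, with a mean percentile of 93.4 ± 1.77 (SD, n = 8 libraries). Hoxb at 78.6 ± 2.93 and Hoxc at 78.7 ± 1.85 came next, and Hoxd was lowest at 68.9 ± 2.02. Hoxa was above each other cluster and Hoxd below each other cluster in 8 of 8 libraries. Hoxa exceeded Hoxd by 24.5 ± 2.63 percentile points, with a range of 20.4 to 29.0. By percentile Hoxb and Hoxc did not differ beyond their spread, with a difference of -0.137 ± 2.43 points and Hoxb the higher in 4 of 8 libraries. Their order depended on the scale: divided by the SD of the chromosome, Hoxb minus Hoxc was -0.0610 ± 0.0733 with Hoxb the higher in 1 of 8 libraries, and the deposited score, which falls with chromosome length, was lower at Hoxb in 8 of 8.

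**Figure D1:**
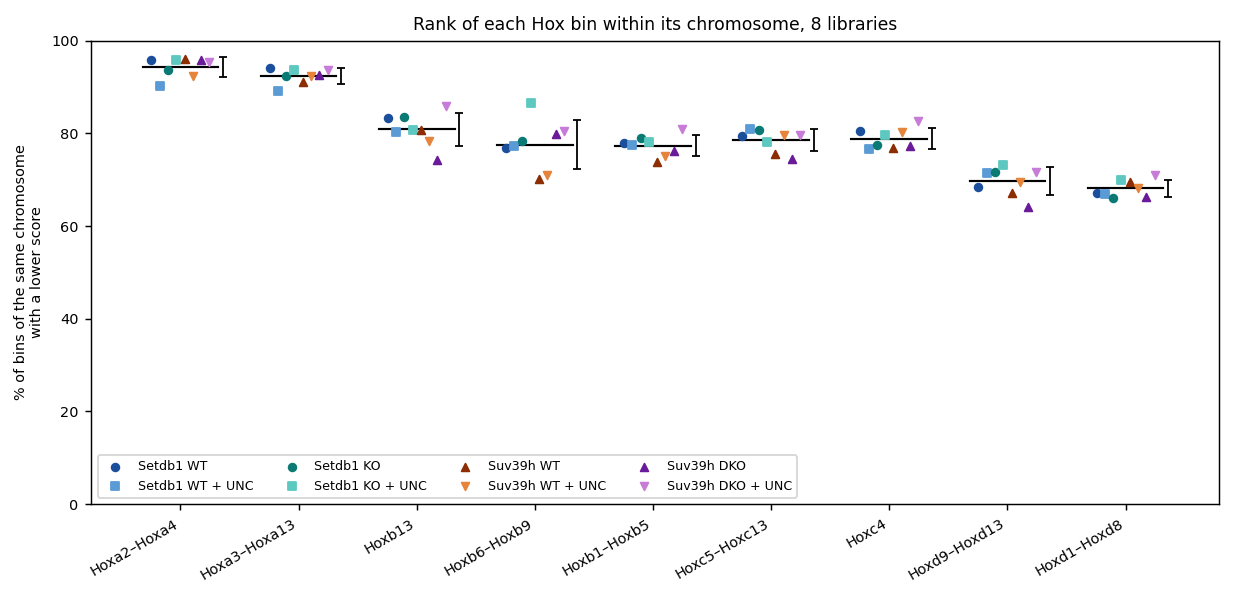
Percentile of each Hox bin among the bins of its own chromosome (vertical axis, percent of bins with a lower score) for the 9 bins named by the first and last member that start in them (horizontal axis). Points are the 8 libraries, black lines the mean and bars the SD. The 2 Hoxa bins sit between 89.1 and 96.0, and the 2 Hoxd bins between 64.1 and 73.1.

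The sequence of the bins was set beside these ranks. The 9 Hox bins had a median GC content of 47.3%, against 43.4% in the flank bins, 41.4% in all bins and 45.1% in the 9333 bins that were A in all 8 libraries. Repeats covered a median of 24.0% of a Hox bin, 27.8% of a flank bin and 31.7% of all bins. The feature in which the Hox bins stood furthest from other bins was CpG content: their observed over expected CpG ratio had a median of 0.334, against 0.223 in the flanks and 0.181 in all bins. This ratio was above the 99th percentile of all bins in 7 of the 9 bins. The exceptions were the Hoxb13 bin at the percentile of 88.2 and the Hoxc4 bin at 81.8, which hold a single member start each. CpG content did not order the clusters as the score did, because Hoxa and Hoxd had nearly the same ratio (0.380 and 0.379) and lay at opposite ends by percentile.

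Promoters from RefSeq (GRCm38.p6) show the CpG content that these bins carry. The table held 24 entries for 22 of the 38 members. The 250 bases before the start held a median of 12.5 CG dinucleotides (range 2 to 35), against 6 in 32851 promoters of all genes, and at least 10 were found in 62.5% of the Hox entries and in 37.8% of all entries. CG reads the same on both strands, so 1 strand was searched. The 4 sequences below were chosen after their CG counts were seen. They show promoters of the same paralogue group in the highest and the lowest cluster (Hoxa13 with 35 CG and Hoxd13 with 31, both needed for digits and the distal limb), a Hoxb member with a role in blood stem cells (Hoxb4 with 14) and a CpG-poor member of Hoxd that acts in the hindbrain and neck (Hoxd4 with 3). Hoxa13 lies at chr6:52260881-52261130 on the minus strand, Hoxd13 at chr2:74667975-74668224 on the plus strand, Hoxb4 at chr11:96318017-96318266 on the plus strand and Hoxd4 at chr2:74721728-74721977 on the plus strand. Capitals mark each CG.
Hoxa13: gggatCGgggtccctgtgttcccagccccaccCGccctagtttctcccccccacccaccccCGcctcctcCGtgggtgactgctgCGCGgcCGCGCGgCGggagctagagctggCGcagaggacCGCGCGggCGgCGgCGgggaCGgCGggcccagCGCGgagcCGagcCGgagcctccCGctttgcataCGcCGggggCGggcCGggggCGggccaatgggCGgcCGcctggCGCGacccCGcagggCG
Hoxd13: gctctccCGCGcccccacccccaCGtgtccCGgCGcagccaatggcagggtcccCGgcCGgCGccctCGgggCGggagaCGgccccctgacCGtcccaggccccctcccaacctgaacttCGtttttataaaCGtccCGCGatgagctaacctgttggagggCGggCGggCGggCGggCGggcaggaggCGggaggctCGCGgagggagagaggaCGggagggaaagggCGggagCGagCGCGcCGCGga
Hoxb4: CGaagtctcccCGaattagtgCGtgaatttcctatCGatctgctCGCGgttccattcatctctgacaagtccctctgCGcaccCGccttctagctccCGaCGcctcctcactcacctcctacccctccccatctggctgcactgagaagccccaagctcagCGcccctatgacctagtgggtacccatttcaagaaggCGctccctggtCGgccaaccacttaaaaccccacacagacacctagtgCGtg
Hoxd4: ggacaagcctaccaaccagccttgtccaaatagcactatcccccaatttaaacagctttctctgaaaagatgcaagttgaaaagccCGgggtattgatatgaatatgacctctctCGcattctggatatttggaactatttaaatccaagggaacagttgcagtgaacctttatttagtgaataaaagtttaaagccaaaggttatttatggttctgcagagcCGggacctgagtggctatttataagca

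Hoxa lay in 2 bins. The bin at chr6:52100001-52200000 holds the starts of Hoxa2, which patterns the second pharyngeal arch and the hindbrain, and of Hoxa4. From low to high, its score was 0.0377 in Setdb1 WT + UNC, 0.0404 in Suv39h WT + UNC, 0.0417 in Setdb1 KO and 0.0438 in Suv39h DKO + UNC. Then came 0.0452 in Suv39h DKO, 0.0456 in Setdb1 WT and 0.0458 in Setdb1 KO + UNC, with Suv39h WT the highest at 0.0468. The lowest value was that of Setdb1 WT + UNC, and the ranges of the Setdb1 and Suv39h lines overlapped. The bin at chr6:52200001-52300000 holds the starts of 8 members, from Hoxa3, a gene of the thymus and neck, through Hoxa5, needed for lung, and Hoxa9 and Hoxa10, known in blood and uterus, to Hoxa13. It scored 0.0403 ± 0.00209, from 0.0366 in Setdb1 WT + UNC to 0.0429 in Setdb1 KO + UNC. The anterior bin was the higher of the pair in 8 of 8 libraries, by 0.00304 ± 0.00259 and by as little as 0.000133. Such agreement in all 8 libraries was found for 34.3% of all pairs of adjacent bins.

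Hoxb covered 3 bins. Hoxb13, the most posterior member, which limits the growth of the tail and acts in the prostate, starts alone in chr11:96100001-96200000, a bin that it shares with the neighbouring genes Calcoco2 and Ttll6. This bin scored 0.0320 ± 0.00307, from 0.0257 in Suv39h DKO to 0.0350 in Setdb1 KO. The middle bin at chr11:96200001-96300000 holds the starts of Hoxb6 to Hoxb9, genes of the trunk skeleton. It scored lowest in Suv39h WT (0.0225) and Suv39h WT + UNC (0.0231), followed by Setdb1 WT (0.0294), Suv39h DKO (0.0305), Setdb1 WT + UNC (0.0305), Suv39h DKO + UNC (0.0310), Setdb1 KO (0.0314) and Setdb1 KO + UNC (0.0358). Both Suv39h WT libraries were below the other 6 libraries, and this bin had the largest SD of the Hox bins (0.00444). The anterior bin at chr11:96300001-96400000 holds the starts of Hoxb1, which specifies a segment of the hindbrain, and of Hoxb2 to Hoxb5, and scored 0.0294 ± 0.00231. It differed from the middle bin by less than the spread, the middle bin being higher in 2 of 8 libraries.

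Hoxc lay in 2 bins. The bin at chr15:102900001-103000000 holds the starts of 8 members, from Hoxc5 to Hoxc13, among them Hoxc8 and Hoxc9, which set motor neuron identity in the spinal cord, and Hoxc13, a gene of hair and nails. Its score was 0.0343 ± 0.00331, from 0.0285 in Suv39h DKO to 0.0385 in Setdb1 KO. Hoxc4 starts in chr15:103000001-103100000, with a score of 0.0345 ± 0.00227. The pair differed by -0.000185 ± 0.00317, less than the spread.

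Hoxd lay in 2 bins. The bin at chr2:74600001-74700000 holds the starts of Hoxd9 to Hoxd13, the group that builds limbs and digits, together with the homeobox gene Evx2. It scored lowest in Suv39h DKO (0.00891) and Suv39h WT (0.0104), followed by Suv39h WT + UNC (0.0127), Setdb1 WT (0.0137), Suv39h DKO + UNC (0.0160), Setdb1 WT + UNC (0.0161), Setdb1 KO (0.0171) and Setdb1 KO + UNC (0.0180). Of the Suv39h line, 3 libraries lay below all 4 of the Setdb1 line, and Suv39h DKO + UNC lay within their range. The bin at chr2:74700001-74800000, with the starts of Hoxd1, Hoxd3, Hoxd4 and Hoxd8, scored 0.0124 ± 0.00180, from 0.0104 in Suv39h DKO to 0.0151 in Suv39h DKO + UNC. The posterior bin was the higher in 6 of 8 libraries, by 0.00171 ± 0.00295.

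Each cluster was then set against its surroundings. Hoxa lay above the mean of both its flanks. Its mean score of 0.0418 ± 0.00234 exceeded the 1 Mb below it (0.0356 ± 0.00116) and the 1 Mb above it (0.0262 ± 0.00187) in 8 of 8 libraries. The drop fell at the posterior end, where the Hoxa3 to Hoxa13 bin exceeded the next bin, that of the homeobox gene Evx1, by 0.0151 ± 0.00232, in 8 of 8 libraries, an agreement that 34.3% of adjacent pairs show. That step was larger than 93.1% of steps between adjacent bins, on the scale of the chromosome's SD. At the anterior end the bin of Skap2, an adaptor protein gene, was as high as the cluster, with 0.0457 against 0.0434 and the Hox bin higher in 2 of 8 libraries, so the cluster was not the highest point of the region. The Hoxa excess over its whole flank was 0.0109 ± 0.00298, and it was lowest in Setdb1 WT + UNC (0.00606).

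Hoxb lay below the mean of both its flanks. Its mean of 0.0302 ± 0.00275 lay below both flanks (0.0381 ± 0.000887 and 0.0344 ± 0.000777) in 8 of 8 libraries. The difference from all its flank bins was -0.00604 ± 0.00323, and it shrank to -0.00323 with 0.5 Mb on each side. The next bin below the cluster, which includes the genes Igf2bp1, Gip and Snf8, was higher than the Hoxb13 bin in 8 of 8 libraries (0.0423 against 0.0320). The next bin above, which holds the start of Skap1, was lower than the Hoxb1 to Hoxb5 bin in 8 of 8 libraries (0.0202 against 0.0294), so that the low point lay at Skap1 and the cluster on the slope toward it. In Suv39h DKO + UNC the second Skap1 bin (chr11:96500001-96600000) fell to 0.00279, against 0.0214, 0.0229 and 0.0248 in Suv39h WT, its UNC0642-treated counterpart and Suv39h DKO, while the mean of the Hoxb bins was higher in that library (0.0324) than in the same 3 libraries (0.0265, 0.0267 and 0.0278).

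Hoxc sat inside the last stretch of A before a border. Its mean of 0.0344 ± 0.00235 was below the 1 Mb on its lower side (0.0400 ± 0.000809) and above the 9 bins on its upper side (0.0130 ± 0.00239) in 8 of 8 libraries. The excess over all its flank bins, 0.00717 ± 0.00200, combines these opposite differences, and its sign turned to -0.00383 when the median of the flank bins was used. The first B bin above Hoxc lay 0.5 Mb away in all 8 libraries. The next bin above holds Smug1 and a part of Cbx5 (the gene of the H3K9 methylation reader HP1α). It was higher than the Hoxc4 bin in 7 libraries (0.0404 against 0.0345 on average, the Hox bin being higher in 1 of 8). The bin between Hoxc13 and Calcoco1, without a protein-coding gene, was lower than the cluster in 8 of 8 libraries (0.0217 against 0.0343).

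Hoxd was a narrow peak of A between neighbouring bins near 0. Its mean of 0.0133 ± 0.00218 exceeded the 1 Mb below (0.00705 ± 0.00158) and above (0.00690 ± 0.00217) in 8 of 8 libraries. The excess over the flank was 0.00628 ± 0.00352, and it ranged from 0.00117 in Suv39h DKO to 0.0114 in Setdb1 KO + UNC. It depended on the width of the flank, with 0.0132 for 0.5 Mb on each side and 0.00113 for 2 Mb. Both ends were sharp: the Lnpk bin below averaged 0.00435 and the Mtx2 bin above 0.00251, and each Hoxd end bin was higher than its neighbour in 8 of 8 libraries, again against 34.3% of adjacent pairs with such agreement. Farther out the scores rose again, and the bin of Hnrnpa3, 894 kb above, averaged 0.0290. The unbroken stretch of A bins that holds Hoxd spanned 0.3 to 0.8 Mb (median 0.45 Mb), whereas the medians were 8.3 Mb around Hoxa (5.7 to 8.4), 5.5 Mb around Hoxb (5.4 to 5.6) and 7.95 Mb around Hoxc (1.9 to 8.1, the shortest in Setdb1 KO + UNC). The length at Hoxd depended on where 0 was set. The deposited scores look like unit vectors from which a chromosome mean was subtracted, and this implied mean was 0.00843 to 0.00971 on chromosome 2. With it added the median stretch became 8.65 Mb, and with it subtracted 0.2 Mb, which is the Hoxd cluster alone. With the mean subtracted the Hoxa median fell to 5.6 Mb, and the Hoxc stretch was 1.9 Mb in 3 libraries. All 72 Hox values stayed positive either way, the lowest being 0.000484 for the Hoxd9 to Hoxd13 bin with the mean subtracted.

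**Figure D2:**
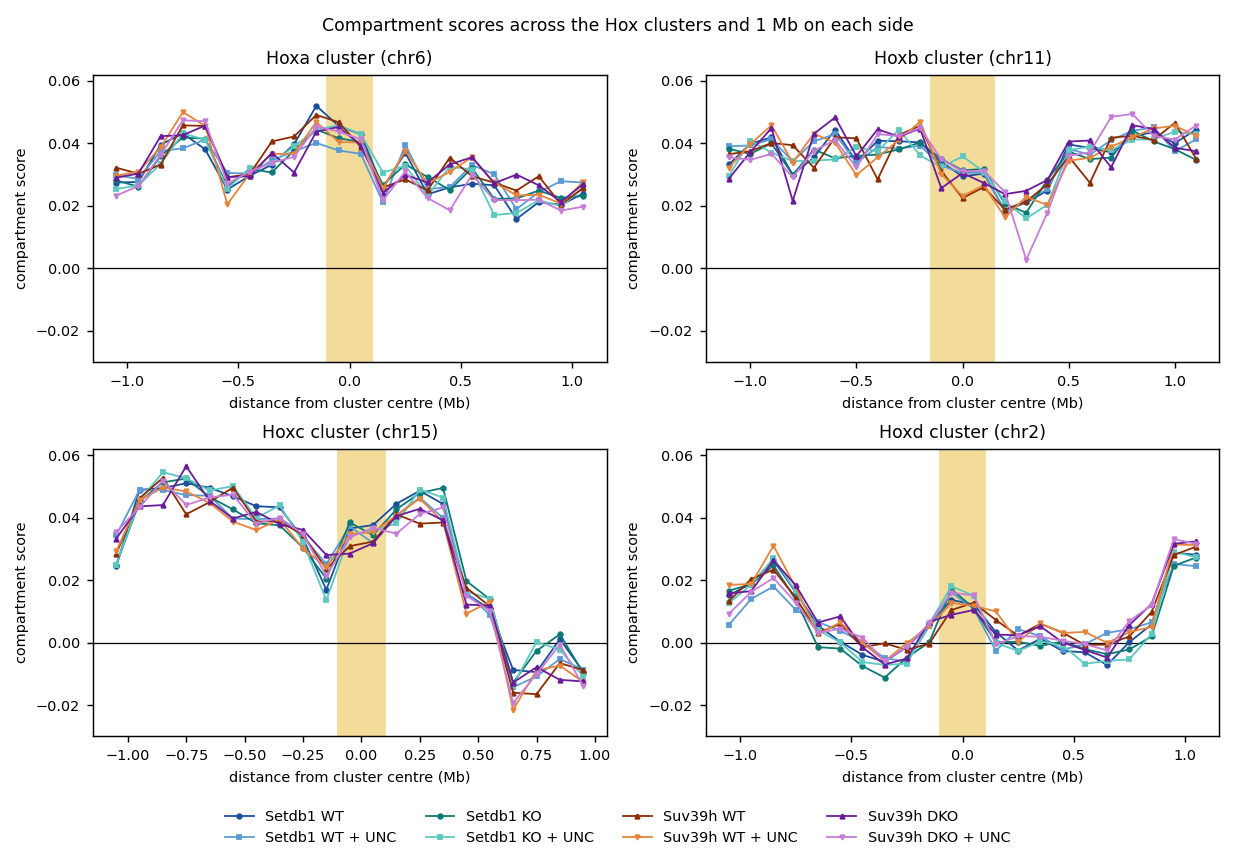
Compartment score (vertical axis, no unit) against the distance in Mb from the centre of each cluster (horizontal axis), 1 line for each of the 8 libraries, with the Hox bins shaded. Hoxa lies above the mean of both flanks beside an equally high Skap2 bin, Hoxb lies on a slope down to Skap1, Hoxc lies 0.5 Mb from the first B bin, and Hoxd rises from neighbouring bins near 0.

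The contrast of each bin with the mean of the 10 bins on either side was tested over the 8 libraries with limma on all bins. The test called 6 Hox bins above their surroundings, both bins of each of Hoxa, Hoxc and Hoxd, where 33.8% of all bins were called above. It called the 3 Hoxb bins below, where 43.3% of all bins were called below. Since 77.1% of all bins passed, passing was common and the direction and size carry the description. The largest contrast was that of the Hoxa2 to Hoxa4 bin, 0.0117 ± 0.00115 (SE, limma adjusted p = 4.69e-07), positive in 8 of 8 libraries. The Hoxd9 to Hoxd13 bin reached 0.00797 ± 0.00141 (SE, limma adjusted p = 0.000147), also positive in 8 of 8. The Hoxb1 to Hoxb5 bin was at -0.00634 ± 0.00101 (SE, limma adjusted p = 5.80e-05), negative in 8 of 8. On the scale of the chromosome's SD, between 29.4% and 85.2% of all bins had a lower contrast than a Hox bin. The calls at Hoxd were lost with 20 bins on each side (limma adjusted p = 0.223 and 0.732), and that of Hoxb13 was lost without any of 4 libraries, Setdb1 WT + UNC, Suv39h WT, Suv39h WT + UNC or Suv39h DKO (limma adjusted p = 0.0517, 0.0518, 0.0628 and 0.0772), its contrast moving from -0.00309 to -0.00198 without Suv39h DKO. With 5 bins on each side the calls of both Hoxc bins were lost (limma adjusted p = 0.299 for Hoxc5 to Hoxc13, which turned to -0.00132, and 0.0630 for Hoxc4), as were those of Hoxb6 to Hoxb9 (0.102) and Hoxb13 (0.966), while Hoxb1 to Hoxb5 kept its call at a smaller contrast of -0.00257 (0.0322). The Hoxa calls also held there, and the Hoxd contrasts rose to 0.0127 and 0.0113.

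**Figure D3:**
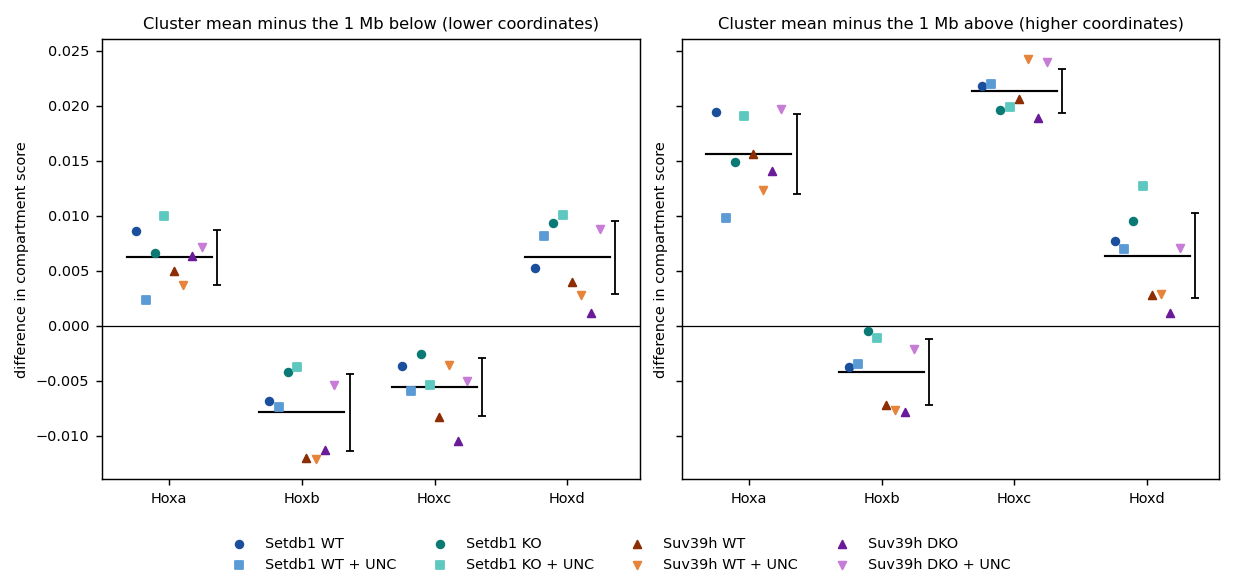
Mean score of each cluster minus the mean of the 1 Mb below it (left) and above it (right), in units of compartment score, for the 8 libraries (points), with the mean (line) and SD (bar). Hoxa and Hoxd lie above 0 on both sides, Hoxb lies below 0 on both sides, and Hoxc lies below 0 on the left and above 0 on the right.

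Base composition and score were also set side by side for each bin, as a description across bins that share chromosomes and neighbours. Among bins within 1 percentage point of the same GC content, the Hoxa2 to Hoxa4 bin had a higher chromosome-scaled score than 93.2%. The Hoxa3 to Hoxa13 bin exceeded 70.8% of its GC-matched bins. The other 7 bins exceeded fewer than 50% of theirs, from 26.8% for Hoxd1 to Hoxd8 to 48.8% for Hoxc4. Among bins within 2 percentage points of the same repeat content the picture differed, and the Hox bins exceeded from 55.3% (Hoxd1 to Hoxd8) to 93.4% (Hoxa2 to Hoxa4) of theirs. Of the bins with the GC content of Hoxd1 to Hoxd8, 92.1% had a positive mean score, and their median scaled score was 1.03 against 0.565 for the Hox bin. The flanks of Hoxd held 4 and 3 protein-coding gene starts in 10 bins each, against 21 and 21 for Hoxb, whereas the 2 Hoxd bins held 11.

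UNC0642 was compared across the 4 backgrounds, each with and without the inhibitor. limma called 0 of the 9 Hox bins, as it called 0% of all bins, and 0 of the 9 had an unadjusted p under 0.05, against 4.95% of all bins. The largest estimate was at Hoxd9 to Hoxd13, 0.00317 ± 0.00195 (SE, 95% interval -0.00117 to 0.00751, limma adjusted p = 0.957). Its score was higher with UNC0642 in all 4 backgrounds, by 0.00238 in Setdb1 WT, 0.000922 in Setdb1 KO, 0.00229 in Suv39h WT and 0.00708 in Suv39h DKO. Without either library of the Suv39h DKO background the estimate was 0.00186. Hoxb6 to Hoxb9 was the only other Hox bin higher in all 4 backgrounds, by 0.00169 ± 0.00188 (SE, limma adjusted p = 0.960), or 0.000760 without either library of the Setdb1 KO background. Such agreement in sign occurred in 6.79% of all bins. No Hox bin was lower in all 4, which 5.94% of bins were. The Hoxa2 to Hoxa4 bin was lower in 3 of 4 backgrounds, with an estimate of -0.00287 ± 0.00233 (SE, 95% interval -0.00805 to 0.00231, limma adjusted p = 0.957) that ranged from -0.00522 without either library of the Setdb1 KO background to -0.00122 without either of the Setdb1 WT background. A test of whether the response to UNC0642 differed between lines called 0 Hox bins, with 0 at an unadjusted p under 0.05 and 0% of all bins called (3.67% unadjusted).

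Loss of SETDB1 was compared in the Setdb1 line with 2 libraries against 2. limma called 0 Hox bins and 0% of all bins, with 0 Hox bins and 9.1% of all bins at an unadjusted p under 0.05. The estimate with the lowest p was at Hoxb6 to Hoxb9, 0.00362 ± 0.00266 (SE, 95% interval -0.00230 to 0.00953, limma adjusted p = 0.755). Its scores were 0.0294 and 0.0305 in the Setdb1 WT pair and 0.0314 and 0.0358 in the Setdb1 KO pair. The pairs did not overlap, but the 95% interval of the difference included 0. Pairs without overlap were common, at 3 of 9 Hox bins and 40.8% of all bins. Without Setdb1 KO + UNC the estimate was 0.00176, and without Setdb1 KO 0.00548.

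Loss of SUV39H1/2 was compared in the same way in the Suv39h line. limma called 0 Hox bins and 0% of all bins. One Hox bin had an unadjusted p under 0.05 (1 of 9, against 9.6% of all bins), again Hoxb6 to Hoxb9, which was 0.00795 ± 0.00266 higher in Suv39h DKO (SE, 95% interval 0.00204 to 0.0139, unadjusted p = 0.0133, limma adjusted p = 0.396). The scores behind it were 0.0225 and 0.0231 in the Suv39h WT pair and 0.0305 and 0.0310 in the Suv39h DKO pair. These pairs did not overlap, as was so for 2 of 9 Hox bins and 39.8% of all bins. The DKO values lay within the range of the Setdb1 line, and the difference did not pass the adjustment over all bins. The remaining 8 bins had estimates from -0.00172 to 0.00299.

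The lines were compared with 4 libraries each. limma called 0 of 9 Hox bins and 4.63% of all bins, and 1 Hox bin against 22.8% of all bins had an unadjusted p under 0.05. That bin was Hoxc5 to Hoxc13, 0.00469 lower in the Suv39h line (estimate -0.00469 ± 0.00204 SE, unadjusted p = 0.0420, limma adjusted p = 0.201). It ranged from 0.0344 to 0.0385 in the Setdb1 line and from 0.0285 to 0.0348 in the Suv39h line, so the lines overlapped. No Hox bin had lines without overlap, which 6.5% of all bins had with the Suv39h line lower and 6.57% with it higher.

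**Figure D4:**
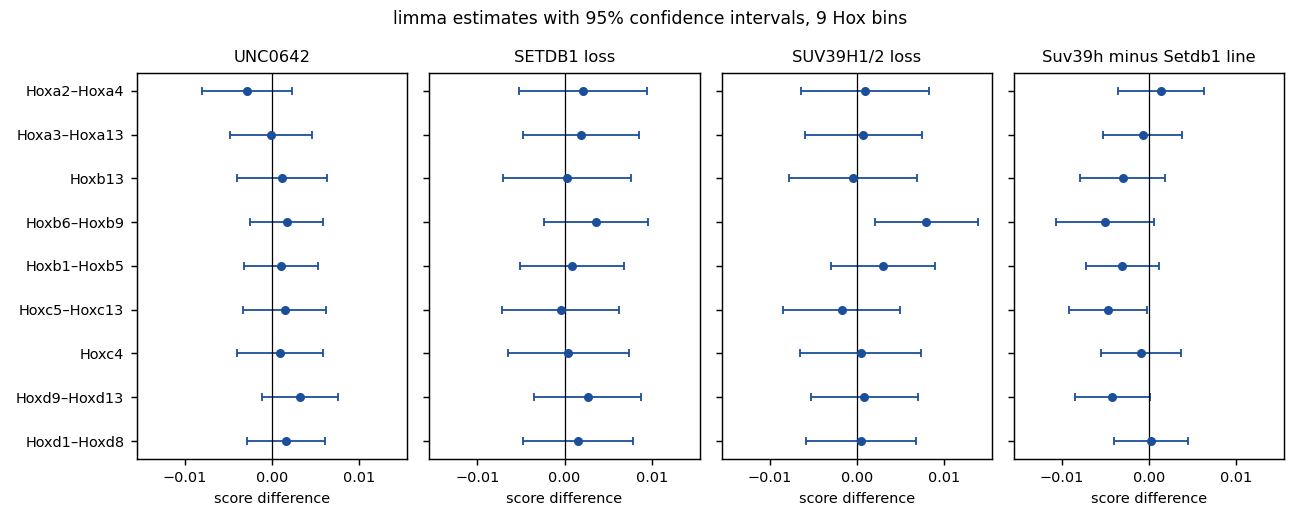
limma estimates (points) with 95% confidence intervals (bars) for the 9 Hox bins (rows) under UNC0642, SETDB1 loss, SUV39H1/2 loss and between lines, in units of compartment score. Most intervals include 0. The exceptions are Hoxb6 to Hoxb9 under SUV39H1/2 loss and Hoxc5 to Hoxc13 between lines, neither of which passed the adjustment over all bins.

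Single libraries were also compared in 11 pairs, with no test since each group has 1 library. A change of at least 0.01 was counted. None of the 9 Hox bins changed by that much in any pair. In the Setdb1 line the share of all bins that did so in either direction was 8.13% for Setdb1 WT + UNC minus Setdb1 WT, 2.28% for Setdb1 KO minus Setdb1 WT, 2.64% for Setdb1 KO + UNC minus Setdb1 WT, 1.69% for Setdb1 KO + UNC minus Setdb1 KO and 12.9% for Setdb1 KO + UNC minus Setdb1 WT + UNC. In the Suv39h line it was 4.79% for Suv39h WT + UNC minus Suv39h WT, 7.38% for Suv39h DKO minus Suv39h WT, 9.8% for Suv39h DKO + UNC minus Suv39h WT, 6.73% for Suv39h DKO + UNC minus Suv39h DKO and 6.84% for Suv39h DKO + UNC minus Suv39h WT + UNC. It was 12% for Suv39h WT minus Setdb1 WT. With 9 bins and shares of this size, 0 or 1 changed bin is near the background, and the pairs share libraries.

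The largest changes fell just short of 0.01 and lay in Hoxb and Hoxa. Hoxb13 was 0.00922 higher in Suv39h DKO + UNC than in Suv39h DKO, rising from 0.0257, the lowest value of that bin, to 0.0349. Hoxb6 to Hoxb9 was 0.00853 higher in Suv39h DKO + UNC and 0.00802 higher in Suv39h DKO than in Suv39h WT. Hoxa2 to Hoxa4 was 0.00783 lower in Setdb1 WT + UNC than in Setdb1 WT and 0.00809 higher in Setdb1 KO + UNC than in Setdb1 WT + UNC, so both of its changes rest on the library Setdb1 WT + UNC. Without that library the range of this bin over the other 7 was 0.0404 to 0.0468. Around the clusters, 0 to 6 of the 79 flank bins changed by at least 0.01 in a pair, among them the second Skap1 bin, which fell by 0.0186 between Suv39h WT and Suv39h DKO + UNC, and the Mtx2 bin next to Hoxd, which fell by 0.0105 between Suv39h WT + UNC and Suv39h DKO + UNC.

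**Figure D5:**
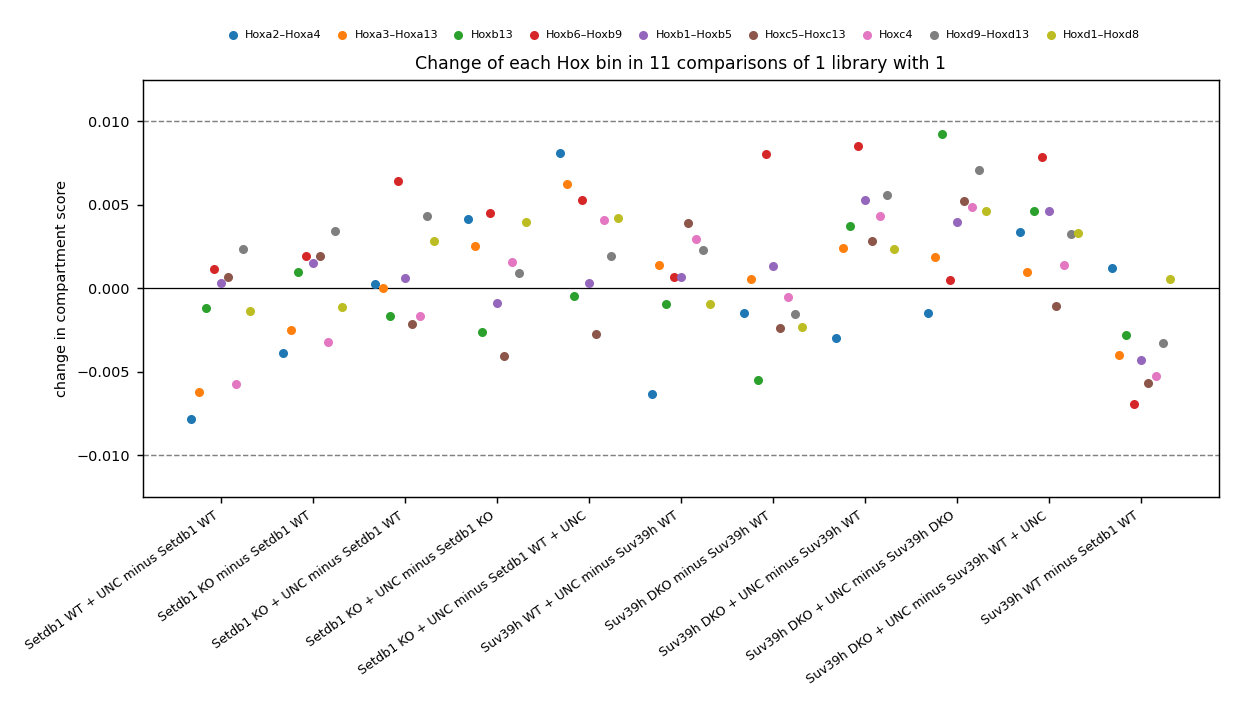
Change in compartment score (vertical axis) of the 9 Hox bins (colours) in 11 comparisons of 1 library with 1 (horizontal axis). Dashed lines mark a change of 0.01, and every point lies between them, the furthest being Hoxb13 at 0.00922.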

How the data were processed

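Hi-C libraries of mESCs were cut with DpnII, and the authors aligned the reads to mm10 with the 4D Nucleome pipeline and used Juicer Tools to take compartment scores as the leading eigenvector of KR-normalised maps, 1 for each autosome. The deposited score of each 100-kb bin was used as given. Genes came from GENCODE vM21 and promoters and sequence from RefSeq GRCm38.p6, which shares coordinates with mm10. Of 24005 bins, the 23972 scored in all 8 libraries were kept. Depth is not in the files. Bins were tested with limma 3.58.1 (R 4.3.3), two-sided and over all bins, with Benjamini-Hochberg adjustment at 0.05, background as a block for UNC0642 and UNC0642 as a covariate for lines. The procedure was tested on simulated data. Residual degrees of freedom of the UNC0642 fit were 3, with 7.24 more from the prior. Cluster and flank means and comparisons of 1 library with 1 were given no test. Every bin that overlaps a member was named, and other genes only as nearest neighbours, occupants of a bin described or members of the lists of cofactors and regulators. A gene of the cofactor list is not reported here. The members and lists were chosen with earlier results of these data known. Alternatives were chromosome scaling, quantile normalization, other limma settings, other flank widths, the implied chromosome mean and each library left out.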

Additional observations from a re-analysis of the deposited data

Results flagged for a closer look

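Dixon's test was run on 26 sets of 4 libraries, and 1 was flagged. Chance flags about 1 in 20, or 1.3 of these sets, so 1 flag is no more than chance gives. In the Suv39h line the Hoxb cluster minus its flank was -0.00374 in Suv39h DKO + UNC, against -0.00957 in Suv39h DKO, -0.00962 in Suv39h WT and -0.00989 in Suv39h WT + UNC, so that this library lay far from the other 3. In the Setdb1 line the same difference ranged from -0.00547 to -0.00233.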

How the results depend on the processing

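The counts of Hox bins called by limma for the line difference, for UNC0642 and for loss of SETDB1 or SUV39H1/2 were 0 under every alternative run, including each library left out. Over all bins the calls for the line difference went from 1110 to 2070 when taken from the fit with background as a block, and ranged from 177 to 3349 with a library left out. Those for SETDB1 loss went from 0 to 448 without Setdb1 WT. With 5 bins on each side, 1 Hox bin was called below its surroundings, the local contrast of Hoxb13 turned to 6.90e-05 and that of Hoxc5 to Hoxc13 to -0.00132, and with a library left out 2 to 3 were called below. The excess over the flank moved to 0.0154 for Hoxa and 0.00113 for Hoxd with 2 Mb on each side, to -0.00323 for Hoxb, 0.00105 for Hoxc and 0.0132 for Hoxd with 0.5 Mb, and to -0.00822 for Hoxb, -0.00383 for Hoxc and 0.00995 for Hoxd with the median of the flank bins. With a library left out it stayed at 0.0104 to 0.0116 for Hoxa, -0.00657 to -0.00549 for Hoxb, 0.00682 to 0.00771 for Hoxc and 0.00555 to 0.00701 for Hoxd. The lengths of the A stretches with the implied mean added or subtracted were chosen after seeing the data. The causes were not tested. No paired analysis by replicate number was possible because each group has 1 library. A bin of 100 kb cannot separate single Hox genes, and scores that average 0 on each chromosome cannot show a general shift.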

Other observations

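Genes that act with or on Hox genes were looked up by the bin of their start. All 10 Polycomb genes, which silence Hox clusters, and all 4 Trithorax genes, which keep them active, were in the A compartment in all 8 libraries, with median percentiles of 91.2 and 94.3 within their chromosomes. Such bins hold 70.9% of all protein-coding gene starts, so a place in A is common among genes. Both CDX genes, which activate Hox genes in the tail of the embryo, were also A in every library. Of the 9 TALE homeobox cofactors, which bind DNA together with HOX proteins, 6 were also A in all 8 libraries. Meis1 and Meis2 were B in all 8, with mean scores of -0.0124 and -0.0109. Pknox2, another of these cofactors, was A in all 8, and limma called its bin lower in the Suv39h line, with an estimate of -0.0129 (limma adjusted p = 0.0144). This was the only call among the 27 genes of all the lists, where 4.63% of all bins were called, so it is no more than the background share.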
